A study of Mus musculus with 4 samples.

Results

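AP-1 is a dimer of basic leucine zipper (bZIP) proteins, and the genes described here are Fos, Fosb, Fosl1, Fosl2, Jun, Junb, Jund, Batf, Atf3 and Maff. They were taken as a gene family, which was chosen with earlier results of these data known. Their accessible sites were found as the listed intervals whose nearest transcription start site (TSS) belonged to one of them. The start sites were those of basic transcripts with an Entrez identifier in the GENCODE M21 annotation of GRCm38. This gave 17 of 3812 intervals, each 201 bp wide, at 6 of the 10 genes. ATAC-seq, in which the Tn5 transposase cuts open chromatin, had been run on RAW macrophages, a mouse macrophage-like cell line. Of the 4 samples, 2 were untreated controls and 2 had been exposed for 1 hr to 5 mM methyl-β-cyclodextrin (MCD), a ring of sugars that takes cholesterol out of membranes. All came from the same line, and no other allele or agent is given for either group.

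Jun proteins can pair with each other or with Fos proteins, and the dimers bind TGACTCA or TGAGTCA. Many of these genes are early response genes, which are transcribed soon after a signal reaches mitogen-activated protein kinases (MAPKs), and these kinases also act on the proteins themselves. In macrophages, AP-1 acts at enhancers together with PU.1, the factor that defines the lineage, and it takes part in the response to inflammatory stimuli.

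The deposited values are the authors' means of normalized reads for each condition. They are given below as reads on the linear scale, and a difference is the MCD mean minus the control mean on the log2 scale. An interval with a higher MCD mean is called gained and one with a lower MCD mean lost. All 3812 intervals had been selected by the authors as different between the conditions, so that intervals without a difference, macrophage marker loci among them, were not analysed here. Single samples are not resolved in these columns. The replicate error and the reads counted in a sample could therefore not be given and no test was run, and a gene without an interval is not shown to be unchanged.

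Of the 17 intervals, 14 were gained and 3 were lost after MCD, and the gained share of 82.4% lies near the 73.2% of all listed intervals. The 14 gained intervals belonged to Fosl2 (7), Atf3 (4), Junb, Batf and Maff (1 each), and the 3 lost intervals all belonged to Jun. The median difference of the 17 was 1.24, against 1.14 for all listed intervals. A difference of at least 1 was found at 10 gained intervals of the 17, where 57.3% of all listed intervals had one. Over the gained intervals alone the median difference was 1.40, against 1.39 for all gained intervals. By genes, 6 of 10 had an interval, where 11.7% of 22384 genes with a start site did. A gained interval was present at 5 of the 10 genes, against 8.72% of all genes, and a lost interval at 1 of the 10, against 3.73%. Because the genes were chosen with earlier results known, these shares are not a test of the family.

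**Figure D1:**
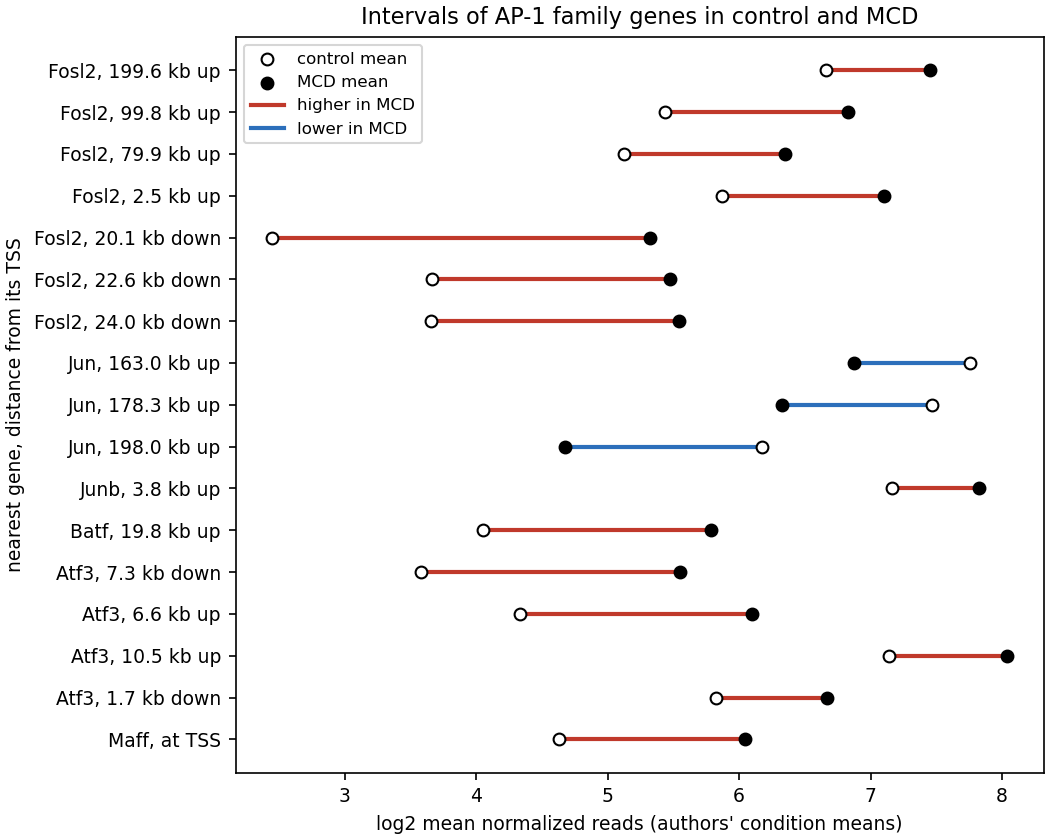
The 17 intervals of AP-1 family genes, named on the vertical axis by gene and distance from its TSS, with the authors' log2 mean normalized reads on the horizontal axis in control (open points) and after MCD (filled points). Red lines join pairs with a higher MCD mean and blue lines the 3 Jun pairs with a lower one, and the longest line is the Fosl2 interval 20116 bp downstream of the TSS, with a difference of 2.87.

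Jun encodes c-Jun, the founding subunit of AP-1. It lies on the minus strand of chromosome 4 (95049034 to 95052222, ENSMUSG00000052684.4). Its 3 intervals were intergenic and far upstream of the start site, so that their link to the gene rests on the rule of the nearest start site. With start sites of all annotated transcripts they were nearest to Gm12708, and Jun had no interval. At chr4:95215230-95215430, 163008 bp upstream, the mean was 216 reads in control and 117 after MCD, a difference of -0.88. At chr4:95230515-95230715, 178293 bp upstream, it was 177 in control and 80.1 after MCD, a difference of -1.14. At chr4:95250210-95250410, 197988 bp upstream, it was 72.4 in control and 25.5 after MCD, a difference of -1.50. The farthest interval thus had the lowest mean in both conditions and the largest difference. The first interval was among the most accessible of the table before treatment, with a control mean at percentile 98.0 of all listed intervals. None of the 3 held an AP-1 consensus. The middle one held GAGGAAGT, a form of the box to which PU.1 binds, and its sequence on the plus strand of GRCm38 is shown with that box in capitals because it is the only match to a searched motif at Jun.

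Jun, chr4:95230515-95230715: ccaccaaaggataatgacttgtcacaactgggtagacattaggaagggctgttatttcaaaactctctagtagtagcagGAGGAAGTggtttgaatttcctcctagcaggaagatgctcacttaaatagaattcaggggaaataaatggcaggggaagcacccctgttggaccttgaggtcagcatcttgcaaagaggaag

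The listed interval closest to the start site of Jun lay on the other side of the gene, 50485 bp away, and was gained. It was nearest to Mysm1 and so is not counted for Jun. Its mean was 31.8 reads in control and 70.2 after MCD, a difference of 1.14, and it held 2 AP-1 matches. The 4 listed intervals within 200 kb of the start site of Jun therefore went both ways, with 3 lost upstream and 1 gained downstream.

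Junb encodes a Jun protein that often acts in place of, or against, c-Jun. It lies on the minus strand of chromosome 8 (84974484 to 84978718, ENSMUSG00000052837.6) and had 1 interval, intergenic, at chr8:84982516-84982716, 3798 bp upstream of its start site. The mean was 143 reads in control and 227 after MCD. The difference of 0.67, a ratio of 1.59, was the smallest of the 14 gained intervals. This interval held a κB site, the kind of sequence to which NF-κB binds. The match reads on both strands with a shift of 1 base, from 84982667 to 84982677. It was the only κB site among the 17 intervals (5.88%), and 7.03% of all listed intervals held one. A PU box lay in the same interval, and both matches are in capitals in its sequence, which is shown because these motifs stand together.

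Junb, chr8:84982516-84982716: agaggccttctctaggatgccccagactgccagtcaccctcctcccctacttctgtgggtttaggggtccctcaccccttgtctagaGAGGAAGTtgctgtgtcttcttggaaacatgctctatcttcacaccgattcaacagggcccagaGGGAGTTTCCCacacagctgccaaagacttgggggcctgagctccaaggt

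Jund, the third Jun gene, had no interval. The closest listed one was 236949 bp from its start site and nearest to Klhl26, with a mean of 24.7 reads in control and 70.1 after MCD, a difference of 1.50.

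Fosl2, which encodes the Fos protein Fra-2, had the most intervals of the family. It lies on the plus strand of chromosome 5 (32135801 to 32157842, ENSMUSG00000029135.10), and its 7 intervals were all gained. Of the 2613 genes with an interval, 13 had more than 7, and the median gene had 1. The intervals formed an upstream group of 4 and a downstream group of 3. With start sites of all annotated transcripts, none of the upstream group was nearest to Fosl2.

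The 3 farthest upstream lay in introns of Babam2, the neighbouring gene, which encodes a subunit of BRCA1-containing deubiquitinase complexes. At chr5:31936036-31936236, 199565 bp upstream of the Fosl2 start site, the mean was 101 reads in control and 175 after MCD, a difference of 0.79. At chr5:32035832-32036032, 99769 bp upstream, it was 43.4 in control and 114 after MCD, a difference of 1.39. At chr5:32055742-32055942, 79859 bp upstream, it was 34.8 in control and 81.7 after MCD, a difference of 1.23. The most accessible of the 3 in control thus had the smallest difference. When start sites of Entrez transcripts outside the basic set were added, all 3 were nearest to Babam2 instead, and 14 intervals remained for the family.

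Each of these 3 intervals held 2 AP-1 matches, which makes 6 of the 8 matches found in the family. The other 2 were in introns of Atf3. The matches are shown in capitals with 10 bases on either side, on the plus strand of GRCm38, because they are sequences to which the products of these genes can bind.

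Fosl2, chr5:31936069-31936095: ctgtgttcagTGACTCAgtctgtgtgc
Fosl2, chr5:31936154-31936180: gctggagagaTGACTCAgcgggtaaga
Fosl2, chr5:32035938-32035964: ttcacagacgTGAGTCAtccacttcag
Fosl2, chr5:32035981-32036007: caggtacctgTGACTCAgctcccattt
Fosl2, chr5:32055838-32055864: ggtagtggtgTGAGTCAccagtagaaa
Fosl2, chr5:32055868-32055894: cctgtgccacTGAGTCAgacatcgtca
Atf3, chr1:191190038-191190064: gagggtggacTGAGTCActccggtgag
Atf3, chr1:191216295-191216321: taatgtcagaTGAGTCAgccgctgggc

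Of the 8 matches, 3 read TGACTCA and 5 TGAGTCA on the plus strand, and these forms are the reverse complement of each other. The second match of the interval at chr5:31936036-31936236 lay in sequence that the reference marks as repeat, as did 56.2% of that interval. It was the only one of the 17 intervals with over 50% of its bases marked as repeat, and 5.33% of all listed intervals were.

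The interval nearest to the start site of Fosl2, at chr5:32133096-32133296, lay 2505 bp upstream in exon 1 of the noncoding gene Gm10463. It covered a start site of Gm10463. The mean was 58.4 reads in control and 137 after MCD, a difference of 1.24. It held no AP-1 match and had a GC content of 70.1%, against a median of 46.8% over the 17 intervals. It also held 2 matches to GCGNGGGCG, the sequence to which EGR proteins, another family of early response factors, bind. It was the only one of the 17 with this motif (5.88%), and 1.29% of all listed intervals held it. Its sequence is shown with these matches in capitals, since it is the Fosl2 interval closest to the start of the gene.

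Fosl2, chr5:32133096-32133296: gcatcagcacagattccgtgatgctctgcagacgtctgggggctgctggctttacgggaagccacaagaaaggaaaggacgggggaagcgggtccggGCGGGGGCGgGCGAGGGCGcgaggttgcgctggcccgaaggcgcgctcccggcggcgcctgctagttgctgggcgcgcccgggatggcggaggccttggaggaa

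The downstream group spans the end of the gene. The interval at chr5:32155917-32156117, 20116 bp downstream of the start site, lay in the 3′ untranslated region in exon 4. Its mean was 5.45 reads in control and 39.9 after MCD, a ratio of 7.32 and a difference of 2.87. This was the largest difference in the family and ranked 29 of 3812. Its control mean was also among the lowest of the table, at percentile 0.892, and how much a value of this size varies between samples is unknown. At chr5:32158382-32158582, 22581 bp downstream and past the end of the gene, the mean was 12.7 reads in control and 44.5 after MCD, a difference of 1.81. At chr5:32159752-32159952, 23951 bp downstream, it was 12.6 in control and 46.5 after MCD, a difference of 1.88. None of these 3 held a searched motif.

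The groups did not overlap. The 3 downstream intervals had control means from 5.45 to 12.7 reads and differences from 1.81 to 2.87. The 4 upstream intervals had control means from 34.8 to 101 reads and differences from 0.79 to 1.39. After MCD, the downstream intervals were still the lower ones, with 39.9 to 46.5 reads against 81.7 to 175. Other gained intervals of the table differed in the same way. The 521 with control means in the range of the downstream group, its members included, had a median difference of 2.05. The 978 in the range of the upstream group had one of 1.05. All had been selected as different, and the smallest difference was 1.54 among the 521 and 0.66 among the 978. The contrast between the groups is thus not particular to Fosl2. By condition means, the intervals outside the family most like the one in exon 4 were nearest to Asb7, Hopx and Ptpdc1, at Euclidean distances of 0.135, 0.145 and 0.147 in the plane of the log2 means. That measure covers 2 condition means alone.

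Fos, the partner from which the name of the Fos family comes, had no interval, and neither had Fosb or Fosl1. The listed interval closest to Fos was nearest to Tmed10, 49719 bp from the start site of Fos, and was lost, with a mean of 89.7 reads in control and 47.9 after MCD, a difference of -0.90. It held 1 AP-1 match, as did 1.96% of the lost intervals. Within 200 kb of Fosb lay 4 listed intervals, all gained, as were 73.2% of all listed intervals, and all nearest to other genes. The closest, 60359 bp away and nearest to Opa3, had a mean of 23.6 reads in control and 54.9 after MCD, a difference of 1.22. Around Fosl1 no listed interval lay within 200 kb, and the closest, nearest to Neat1, was 368416 bp away.

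**Figure D2:**
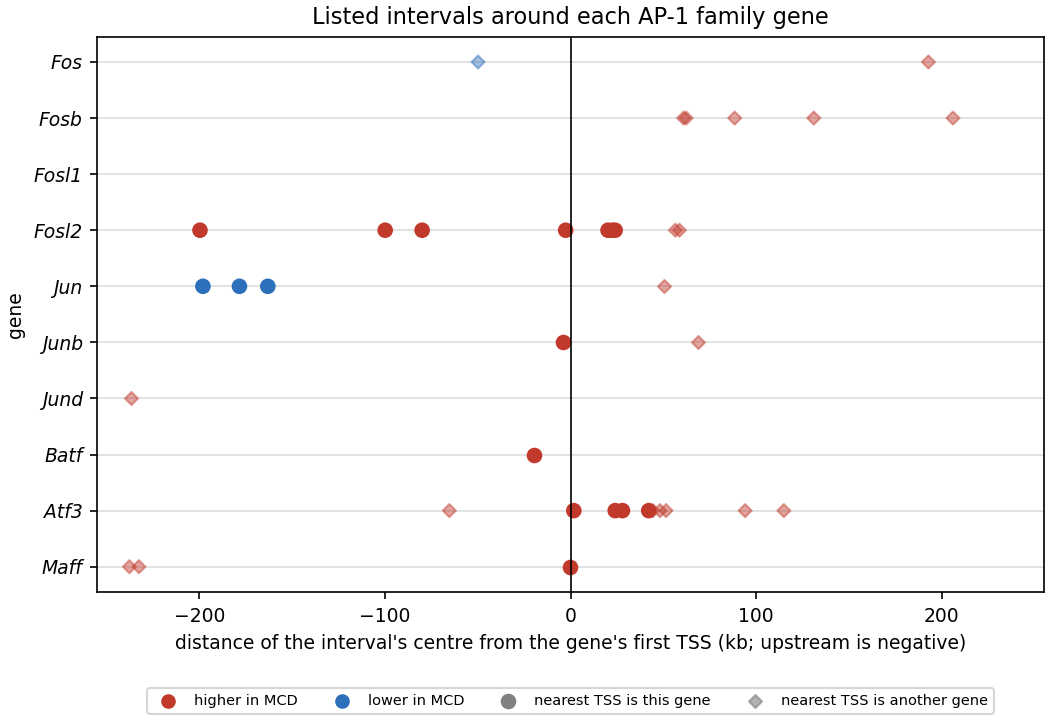
Listed intervals around each of the 10 genes, placed by the distance in kb of their centre from the gene's first TSS, with upstream distances negative. Circles are intervals nearest to the gene itself and diamonds those nearest to another gene, red where the MCD mean was higher and blue where it was lower. The 3 Jun intervals form a blue group upstream, Fosl2 and Atf3 have red intervals on both sides or within the gene, and Fosl1 has none in the 250 kb shown on either side.

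Atf3 encodes a stress-induced bZIP protein that pairs with Jun proteins and is known to restrain inflammatory genes in macrophages. It lies on the minus strand of chromosome 1 (191170296 to 191218039, ENSMUSG00000026628.13) and has start sites at 191183340 and, for a longer transcript, at 191218039. Its 4 intervals all lay in introns and were all gained. At chr1:191175796-191175996, in intron 2 and 7344 bp downstream of the inner start site, the mean was 11.9 reads in control and 46.8 after MCD, a difference of 1.97. The other 3 lay in intron 1 of the longer transcript. At chr1:191189943-191190143, 6603 bp upstream of the inner start site, the mean was 20.2 in control and 68.4 after MCD, a difference of 1.76. At chr1:191193862-191194062, 10522 bp upstream of the same site, it was 141 in control and 263 after MCD, a difference of 0.90. At chr1:191216174-191216374, 1665 bp downstream of the outer start site, it was 56.7 in control and 102 after MCD, a difference of 0.84.

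As at Fosl2 and in other gained intervals of the table, low control means at Atf3 went with larger differences. One pair had low control means and differences above 1, and the other had higher control means and differences below 1. The listed intervals had all been selected as different, and whether this split is particular to Atf3 was not tested. The AP-1 matches were shared between the pairs, with 1 in the interval with a difference of 1.76 and 1 in that with 0.84. The first of these intervals is shown whole, with its match in capitals, as the Atf3 interval with a match and the larger difference.

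Atf3, chr1:191189943-191190143: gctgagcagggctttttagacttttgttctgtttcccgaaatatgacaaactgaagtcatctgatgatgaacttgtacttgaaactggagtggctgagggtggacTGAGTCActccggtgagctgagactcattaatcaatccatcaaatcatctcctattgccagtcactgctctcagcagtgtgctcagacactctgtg

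Intervals of neighbouring genes lay close to Atf3. Within 200 kb of a start site of Atf3 lay 10 listed intervals, all gained, and 7 of them within 50 kb. Within 200 kb of the start site of Fosl2 lay 9, also all gained, and 7 of these are its own intervals described above. Of all listed intervals, 73.2% were gained. How many listed intervals lie within 200 kb of other start sites was not counted. Of the 10 around Atf3, 6 were nearest to other genes, with 3 nearest to Fam71a, 2 to Batf3 and 1 to Nenf. The largest difference among them, 2.55 at chr1:191173677-191173877, came from means of 8.13 reads in control and 47.8 after MCD, at an interval nearest to Fam71a and 9463 bp from a start site of Atf3. Batf3, a bZIP gene related to Batf, had differences of 1.64 and 1.01 at its 2 intervals, and both held AP-1 matches.

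Batf encodes a small bZIP protein that pairs with Jun proteins and binds next to interferon regulatory factors. It lies on the plus strand of chromosome 12 (85686669 to 85709087, ENSMUSG00000034266.6) and had 1 interval, intergenic, at chr12:85666640-85666840, 19829 bp upstream of its start site. The mean was 16.6 reads in control and 55.1 after MCD, a ratio of 3.32 and a difference of 1.73. The interval lay between Fos and Batf, 192750 bp from the start site of Fos. With start sites of all annotated transcripts it was nearest to Gm33312, at 4198 bp, and Batf had no interval. It held none of the 7 searched motifs and had the lowest GC content of the 17, at 39.8%. Its sequence is shown as the only Batf interval.

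Batf, chr12:85666640-85666840: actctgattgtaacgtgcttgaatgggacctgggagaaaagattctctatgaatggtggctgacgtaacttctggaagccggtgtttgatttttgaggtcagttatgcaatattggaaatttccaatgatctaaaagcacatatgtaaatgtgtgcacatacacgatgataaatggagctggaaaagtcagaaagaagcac

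Maff encodes a small Maf protein, a bZIP partner without a transactivation domain of its own. It lies on the plus strand of chromosome 15 (79346621 to 79359076, ENSMUSG00000042622.14) and was the only gene of the family with an interval over one of its own start sites, at chr15:79346463-79346663. This interval reached into exon 1 and its 5′ untranslated region. The mean was 24.7 reads in control and 66.0 after MCD, a ratio of 2.67 and a difference of 1.42. It held no searched motif. The 158 bases of the interval before the start site are shown because this interval covers a start site of a gene of the family.

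Maff, chr15:79346463-79346620: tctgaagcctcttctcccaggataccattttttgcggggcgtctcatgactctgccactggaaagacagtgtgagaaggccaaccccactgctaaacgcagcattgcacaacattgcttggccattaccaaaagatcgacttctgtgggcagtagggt

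Within 3 kb of a start site lay 3 of the 17 intervals (17.6%), those of Maff, Atf3 at 1665 bp and Fosl2 at 2505 bp, against 9.99% of all listed intervals. The median distance was 20116 bp for the family and 23226.5 bp for all listed intervals. In the plot of all intervals, the members lie within the cloud of the other listed intervals on either side of the line of equal means.

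**Figure D3:**
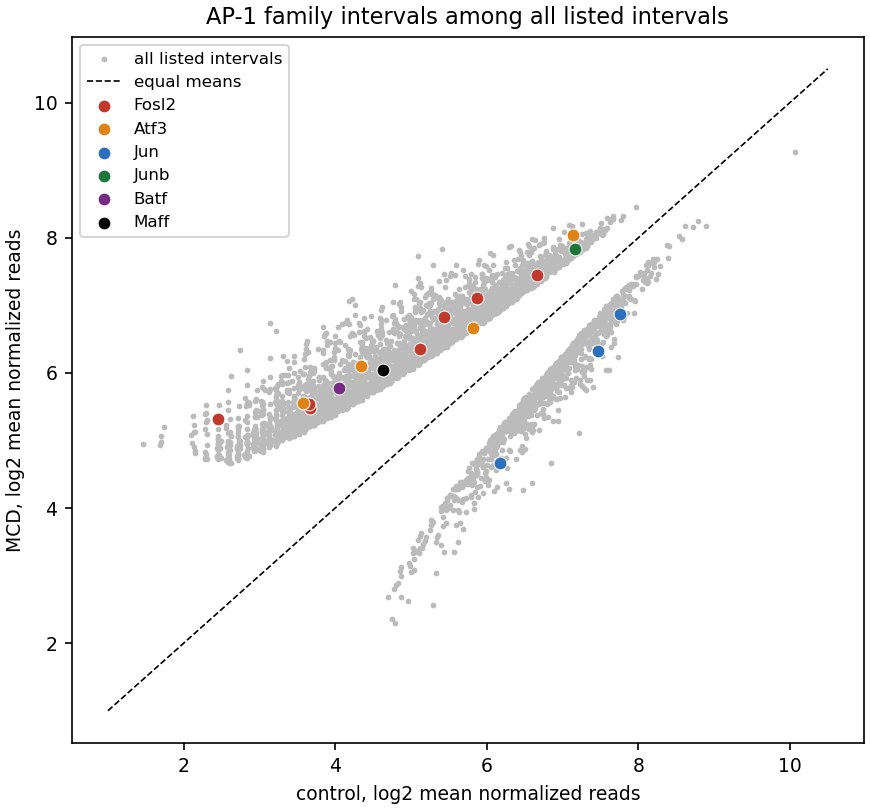
The authors' log2 mean normalized reads after MCD (vertical) against control (horizontal) for the 3812 listed intervals in grey and the 17 intervals of AP-1 family genes in colour, with a dashed line at equal means. The band along the line is empty, since the table holds differing intervals alone, and the 3 Jun intervals are the members below it.

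The sequences were searched on both strands for 7 motifs, and overlapping matches were counted. AP-1 (TGACTCA or TGAGTCA) was present in 5 of the 17 intervals (29.4%), against 34.1% of all listed intervals. Over gained intervals, it was present in 5 of 14 (35.7%), against 45.9% of all gained ones. The PU box GAGGAAGT was present in 2 of 17 (11.8%), against 7.69% of all. The cAMP response element TGACGTCA, the CRE-like sequence TGACATCA, which is known from the Jun promoter, and the CArG box of serum response factor were in none of the 17, and in 1.08%, 4.51% and 1.15% of all listed intervals. With 17 intervals, 1 interval makes 5.88%, and no difference of these shares from the table was tested.

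**Figure D4:**
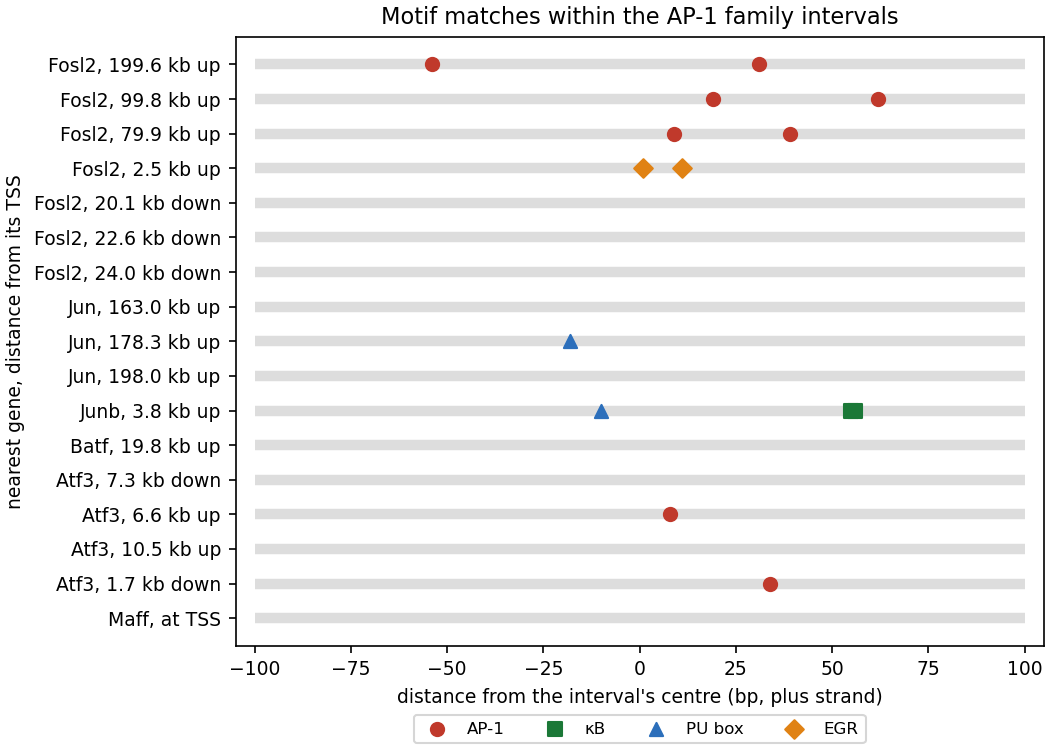
Motif matches within the 17 intervals of AP-1 family genes, by distance in bp from the interval's centre on the plus strand. Each grey bar is an interval of 201 bp, and symbols mark AP-1, κB, PU box and EGR matches. The AP-1 matches lie in 3 upstream Fosl2 intervals and 2 Atf3 intervals, and 9 of the 17 bars carry no match.

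In the RefSeq promoter table of GRCm38.p6, which gives 250 bases before and 50 after a start, 9 of the 10 genes were matched, with 11 promoters. Fosl1 was not matched. The promoters of Fosl2 and Jund do not include the start sites used above. At Atf3 the inner start alone is covered, so the outer one was not searched. None of the 11 held an AP-1 consensus, which 5.20% of all 32851 promoters did. The CRE-like sequence was in the promoter of Jun and in 1 of 3 promoters of Maff, where 3.62% of all promoters held it. The cAMP response element TGACGTCA was in another promoter of Maff, where 1.79% of all promoters held it. A κB site was in the promoters of Fos, Fosb and Fosl2 and in 1 of Maff, where 4.51% of all did, and GCGNGGGCG was in those of Fosb, Fosl2 and 1 of Maff, where 5.55% did. None of the promoters that held one of these motifs was overlapped by a listed interval of the family. The Maff promoter that was overlapped held no searched motif.

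Lists of related genes, also chosen with earlier results of these data known, were set beside the family. The first held 39 other bZIP genes, which include possible partners and competitors. Of these, 9 had a gained interval (23.1%) and 6 a lost one, with 3 in both counts (Bach2, Cebpa and Maf). Of all genes, 8.72% had a gained and 3.73% a lost interval. The 27 intervals of the list, 18 gained (66.7%, against 73.2% of all listed intervals) and 9 lost, had a median difference of 1.04, against 1.14. The largest differences per gene were 2.70 at Cebpd, 2.53 at Bach2, 2.21 at Maf and 2.03 at Nfil3. The control means there were low, at 14.4, 5.98, 8.79 and 7.20 reads, against a median of 29.2 over all gained intervals. Smaller differences were found at Batf3 (1.64), Nfe2l2 (1.44), Bach1 (1.35), Cebpb (1.28) and Cebpa (1.04). The largest lost difference of a gene with lost intervals alone was -0.94 at Atf6, a sensor of stress in the endoplasmic reticulum. Among the 3 genes in both counts, Bach2 had a lost interval with a difference of -1.93, from 31.9 reads in control to 8.34 after MCD, and Cebpa one of -0.75. At Maf, a factor of tissue macrophages, 4 of 6 intervals were lost, with differences from -1.04 to -1.29.

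Of 44 genes of the MAPK pathway, which lies upstream of AP-1, 11 had a gained interval (25.0%) and 4 a lost one, with none in both, against 8.72% and 3.73% of all genes. Their 18 intervals, 14 of them gained (77.8%), had a median difference of 1.10, near the 73.2% and 1.14 of all listed intervals. The largest gained differences were 2.21 at Rps6ka3, a kinase activated by ERK, 2.05 at Map2k3, a kinase that activates p38, 1.79 at Mapk13, which encodes a form of p38, and 1.44 at Mef2c. They were followed by Map3k4 (1.26), Mapk14 (1.19), which encodes another form of p38, Rps6ka1 (1.18), Mapk11 (1.11) and Elk3 (1.10). The control means at Rps6ka3, Map2k3, Mapk13 and Mef2c were 10.9, 8.34, 17.5 and 42.5 reads, against a median of 29.2 over all gained intervals. Among lost intervals, that of Map3k14, the kinase of the noncanonical NF-κB pathway, had a difference of -1.10.

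Of 18 genes known as AP-1 targets, 9 had a gained interval (50.0%, against 8.72% of all genes) and Ccnd1, which encodes cyclin D1, had lost intervals alone. Their 28 intervals, 26 gained (92.9%, against 73.2% of all listed intervals) and 2 lost, had a median difference of 1.61, against 1.14. However, 11 of the 28 were nearest to 1 gene, Cd44, which encodes a receptor for hyaluronan. The largest difference per gene was 2.86 at Cd44, 2.75 at Spp1 (osteopontin), 2.72 at Il1b (interleukin-1β) and 2.12 at Ptgs2 (cyclooxygenase-2). The control means there were low, at 4.31, 19.2, 7.12 and 9.89 reads, against a median of 29.2 over all gained intervals. Differences of 2.04, 1.56, 1.48 and 0.89 were found at Plaur, Mmp9, Il6 and Hbegf. At Ccnd1 the larger difference was -1.41. An AP-1 consensus was present in 6, 6 and 8 intervals of the bZIP, MAPK and target lists, all of them gained. These are 6 of 18, 6 of 14 and 8 of 26 gained intervals, where 45.9% of all gained intervals held the consensus, and of the 1301 listed intervals with it 1281 were gained.

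**Figure D5:**
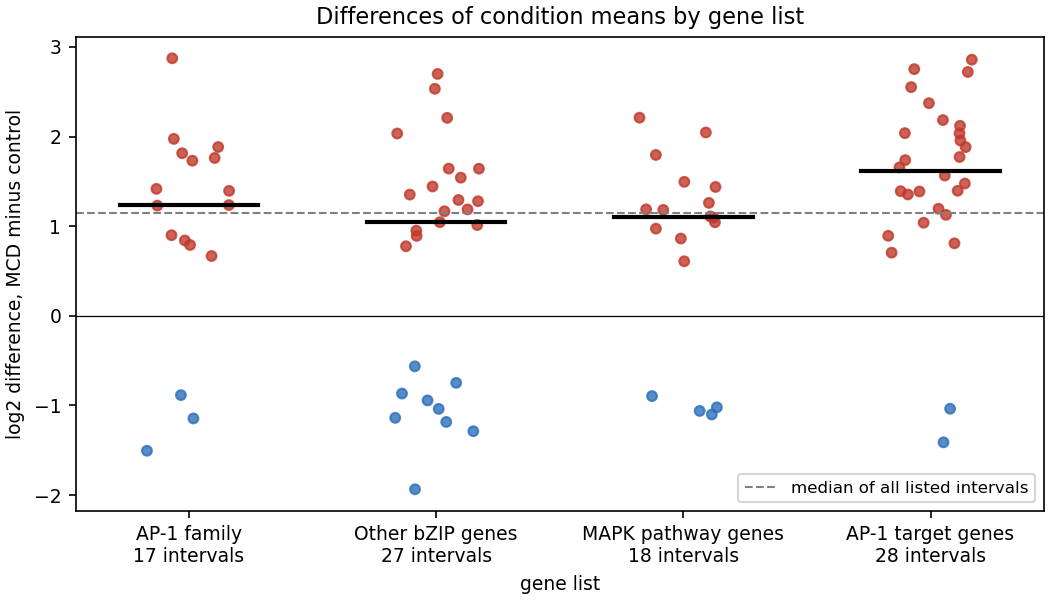
Log2 differences of condition means, MCD minus control, for the intervals of the AP-1 family and of the 3 lists of related genes. Each point is an interval, red where gained and blue where lost, black bars are medians and the dashed line is the median of all listed intervals, 1.14. The median of the AP-1 target genes, 1.61, is the highest of the 4, and 11 of its 28 points belong to Cd44.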

How the data were processed

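ATAC-seq was measured in 2 control and 2 MCD samples, grouped by their labels. Reads were mapped by the authors with Bowtie2 (GRCm38), and Picard was used to drop duplicates. Peaks came from MACS, and DiffBind was used for the comparison of conditions. The submitters' processing notes name Bowtie2 2.4.4, MACS3 3.0.0, cutadapt 2.6, deepTools 3.5.1 and R 4.0.2. The normalization of the reads, the handling of the Tn5 offset and whether peaks were called on pooled reads are not given in the sources used here. No other scaling could be tried.

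The deposited table holds, per condition, a log2 mean of normalized reads made by the authors. These are pooled columns with no counts per sample, and no test was run. The study's methods state a nominal sequencing depth per library, while the reads behind each mean are unknown. The table also holds the authors' fold change, p-value and FDR, which were not used.

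Linear means and their log2 difference were computed, and each interval was assigned to the nearest TSS, measured from its edge. Python 3.11.15, numpy 2.4.6, pandas 2.3.3, pysam 0.24.0 and samtools 1.23.1 were used, and the search and assignment were tested on simulated data. Soft-masked bases of the RefSeq genome were read as repeat.

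The members and lists were chosen with earlier results of these data known. Every interval of the 10 members is described. Of each list, all genes with an interval were to be named where there were 10 or fewer, and otherwise the 10 with the largest absolute difference. Of the AP-1 target list, 1 gene is counted but its values are not reported here. Maf, Bach2 and Cebpa details, the control means in the lists, Batf3 motifs and the number of Cd44 intervals were chosen after their values were seen. The genes most like the family are those of the 3 intervals closest in both log2 means to the interval with the largest difference. Alternatives were other start sites, distances, thresholds and motif searches. Expression was not used here.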

Additional observations from a re-analysis of the deposited data

How the results depend on the processing

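No paired analysis was possible because the columns are condition means. With start sites of all annotated transcripts, the family had 8 intervals, all 8 gained, with a median difference of 1.79, and 2 held an AP-1 consensus. A gained interval was then found at 4 other bZIP genes and 7 MAPK genes. The 3 Jun intervals moved to Gm12708 and the only Batf interval to Gm33312, which left 4 genes with an interval. The 4 upstream Fosl2 intervals moved to Gm43811, Babam2 and Gm10463, which left Fosl2 its downstream group of 3. An Atf3 interval moved to Gm24748. The calls at Jun and Batf, the upstream group of Fosl2 and its place as the gene with the most intervals depend on this choice. With Entrez transcripts outside the basic set, added after seeing the data, the median was 1.33 and 2 intervals held AP-1. With absolute differences of at least 1, the median was 1.57 and 3 held AP-1. With means at or above the table's median, 8 intervals and 6 gained ones were left, with a median of 0.82 and 3 with AP-1. Within 1 kb of a start site lay 1 interval. A pseudocount of 10 gave a median of 1.11. Leaving out the Jun intervals, also added after seeing the data, gave 1.40. Start sites of protein-coding transcripts gave the same 17 intervals. The looser AP-1 motif and the wider window each gave 6 intervals. No sample could be left out, since the values are not per sample, and the reads behind each mean are unknown.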
